A study of Arabidopsis thaliana with 16 samples.

Results

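Transcripts of 10 genes that carry the names of cold, drought and ABA responses were followed in germinating *sweet1* seeds of Arabidopsis thaliana. The genes were LTI65 (also RD29B, AT5G52300), LTI78 (also RD29A, AT5G52310), KIN1 (AT5G15960), KIN2 (AT5G15970), RD20 (AT2G33380), RD22 (AT5G25610), RD26 (AT4G27410), COR413PM1 (AT2G15970), COR413PM2 (AT3G50830) and TSPO (AT2G47770). They were chosen by name from the 27655 genes in the files as a group induced by ABA, with levels under ABA already seen, so the ABA against control values describe how they were chosen and carry no test. The group name did not hold for every gene: 7 of the 10 had at least 2 times their mean control level under ABA, whereas RD20, RD22 and COR413PM2 did not.

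All seeds were labelled *sweet1*, a T-DNA allele in the Col-0 background, controls included, and wild-type libraries were not analysed here. The mutation lies in SWEET1, a glucose (Glc) transporter gene, and the series asks what Glc changes in ABA-treated seeds of this mutant. After 3 d of imbibition at 4 °C, seeds were grown on ½MS medium at 22 °C and moved at 24 h after imbibition (HAI) to liquid ½MS without addition (control), with 60 mM Glc, with 5 μM ABA, or with both (ABA + Glc). Whole seeds were taken after 6 h, at 30 HAI, in 4 biological replicates per treatment. Values are headed TPM, a level per transcript length by which levels of different genes can be set side by side. Library sums differed and no source used here says how the values were rescaled, so they are treated as a score. Comparisons of levels between genes are descriptions. Of the 16 libraries, 14 entered the averages and tests; ABA replicate 3 and ABA + Glc replicate 3, which the study's own table of these samples leaves out, are given beside them.

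Abscisic acid acts in seeds through SnRK2 kinases, which switch on bZIP factors of the ABI5 and ABF family that bind ABA-responsive elements (ABREs, core ACGTG) in promoters. Cold and drought act through CBF and DREB2 factors, which bind the dehydration-responsive element (DRE, core CCGAC), and a further drought route runs through MYC2 and MYB2, with MYC2 binding CACATG. LTI78 is the textbook gene on which DRE and ABRE were shown to work together, LTI65 is the standard ABRE reporter, and RD22 is the standard target of MYC2 and MYB2, as known from vegetative tissue.

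These 3 motifs were looked for on both strands in the 300 bases before each annotated start (RefSeq annotation, TAIR10.1), and 8 stretches that hold matches are shown here so that related or contrasting genes of the results can be compared. Capitals mark the motif cores. Sequences run 5′ to 3′ on the strand of the gene and come from the RefSeq genome.
LTI65, chr5:21236871-21237020, plus strand: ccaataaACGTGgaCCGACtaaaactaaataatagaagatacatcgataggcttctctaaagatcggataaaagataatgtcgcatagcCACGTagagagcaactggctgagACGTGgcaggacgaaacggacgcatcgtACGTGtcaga
LTI78, chr5:21240547-21240716, plus strand: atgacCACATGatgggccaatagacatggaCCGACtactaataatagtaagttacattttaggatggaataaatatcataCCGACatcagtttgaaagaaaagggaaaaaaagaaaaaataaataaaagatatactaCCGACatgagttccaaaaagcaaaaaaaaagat
KIN1, chr5:5209537-5209596, plus strand: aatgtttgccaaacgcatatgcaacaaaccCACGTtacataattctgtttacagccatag
KIN2, chr5:5211497-5211556, plus strand: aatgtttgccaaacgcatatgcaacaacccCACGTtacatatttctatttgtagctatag
RD20, chr2:14146606-14146705, minus strand: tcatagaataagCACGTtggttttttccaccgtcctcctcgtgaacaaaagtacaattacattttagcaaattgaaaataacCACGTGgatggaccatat
RD22, chr5:8916857-8916936, minus strand: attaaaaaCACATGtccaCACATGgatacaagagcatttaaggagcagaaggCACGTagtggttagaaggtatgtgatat
COR413PM1, chr2:6949651-6949700, plus strand: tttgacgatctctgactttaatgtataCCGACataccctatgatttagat
TSPO, chr2:19568314-19568363, plus strand: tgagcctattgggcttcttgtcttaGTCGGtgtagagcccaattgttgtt

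LTI65 and LTI78 lie in tandem on the plus strand of chromosome 5, 1185 bases apart, and their upstream stretches differ. LTI65 held 4 ABRE cores, 143, 61, 38 and 10 bases before its start, and 1 DRE core at 136. LTI78 held 3 DRE cores, at 140, 90 and 33, and a CACATG at 165, but no ABRE core before its start. Of the 27443 protein-coding genes with such a window, 3.44% held at least 3 ABRE cores and 0.277% at least 3 DRE cores. KIN1 and KIN2 are also in tandem, 892 bases apart on the same chromosome, and the 60 bases around their single upstream ABRE core were identical at 54 positions.

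An ABRE core lay upstream in 6 of the 10 genes, against 25.6% of all windows, a DRE core in 5, against 13.9%, and CACATG in 3, against 13.1%. Some annotated starts lie well before the coding sequence, so the first 150 transcribed bases were searched as well: 7 of the 10 genes held an ABRE core there, against 12.1% of genes, at base 70 in LTI78. With both windows, COR413PM1 was the 1 gene of the 10 with no ABRE core, and it held a DRE core 173 bases before its start. RD20, whose transcript was near 0 in every library, held 3 upstream matches, of which 2 are the palindrome CACGTG read on each strand. A match describes the letters, not a bound site, and no match says only that the letters are absent from that window.

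**Figure D1:**
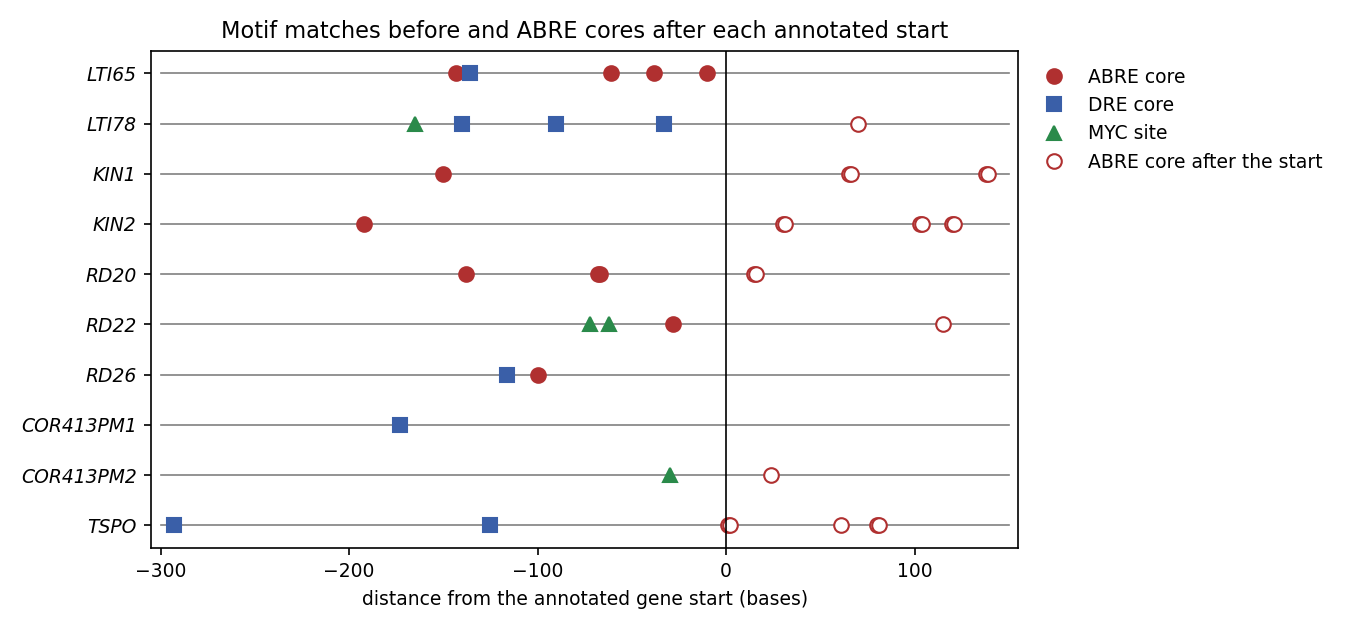
Matches of the ABRE core (circles), DRE core (squares) and MYC site (triangles) by distance in bases from the annotated start of each gene; filled symbols are in the 300 bases before the start and open circles are ABRE cores in the first 150 bases after it. LTI65 has 4 filled circles and LTI78 has 3 squares, while COR413PM1 has no circle.

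Across the series, library sums were 951008 to 1053766, the depth in reads is unknown, and log2 levels of 2 libraries of a treatment correlated at 0.988 to 0.992. The SWEET1 transcript was listed at 8.29 to 17.59 TPM in all 16 libraries. No wild-type level was set beside it, and reads from before and after the insertion are pooled in it. Whether the transcript is lowered therefore cannot be said from these values. By RT-PCR, the study detected no SWEET1 transcript in seeds of its T-DNA mutant. The genotype of these libraries could not be checked. Among markers of seed tissues, the 5 embryo storage transcripts summed to 369 to 613 TPM in control and 497 to 971 in Glc. The sum was 2896 to 3200 TPM in ABA and 2373 to 2796 in ABA + Glc. CRA1, OLEO1 and OLEO2 had their highest mean in ABA, as most of the genes described here did. CRU3 and SESA3 did not: their ABA + Glc means of 217 and 245 TPM lay above their ABA means of 185 and 161 TPM. The part of these markers in the values of the genes described here was not tested. In whole seeds, fewer cells of a type and less RNA per cell cannot be told apart. The 4 endosperm markers summed to 146 to 241 TPM over the 14 libraries but to 459 in ABA + Glc replicate 3, 1 of the 2 libraries left out. EPR1, with treatment means of 141 to 174 TPM, held most of that sum, which hides changes in the lower markers. MAN7 had means of 16.9 TPM in control, 29.0 in Glc, 48.7 in ABA and 52.8 in ABA + Glc. For CYP707A2 they were 3.7, 3.1, 11.4 and 7.9 TPM in the same order. NCED6 was low and had its highest mean in control, at 0.57 TPM, with 0.30 in Glc, 0.22 in ABA and 0.35 in ABA + Glc. Of the 4 seed coat markers, MUM4 was at 9.99 to 14.6 TPM, and BAN and TT10 were listed at 0 in every library.

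Of the 4 treatments, ABA alone gave the highest mean in all of the 10 genes but RD20 and RD22. Against control, 7 of the 10 genes were at least 2-fold higher in mean TPM with no overlap between libraries, as were 2.87% of the 17498 genes tested; since the genes were chosen for this contrast, nothing is read from that count. The fold of the mean ran from 145 in LTI78 through 42.8 in LTI65, 42.4 in KIN1, 27.6 in TSPO and 15.0 in COR413PM1 to 3.35 in KIN2 and 2.25 in RD26. By log2 fold change, LTI78 stood at rank 1 of the 17498 genes, LTI65 at rank 4, TSPO at 14 and KIN1 at 19.

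LTI65 and LTI78 encode related hydrophilic proteins whose transcripts mark ABA, cold and drought responses. LTI65 was at 9.36, 6.26, 10.07 and 8.14 TPM in control replicates 1 to 4 and at 10.11, 9.76, 8.48 and 6.85 TPM in Glc replicates 1 to 4. Under ABA it was at 398, 342, 381 and 346 TPM, and under ABA + Glc at 193, 199.8, 177 and 175 TPM, again for replicates 1 to 4. Every library with ABA was thus far above every library without it, and each ABA + Glc library lay below each ABA library. The log2 fold change of LTI65 with ABA was 5.35 ± 0.14 (SE, limma on log2(TPM + 0.5), no test).

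LTI78 was much the lower of the pair without ABA, at 0.90, 0.45, 0.79 and 0.35 TPM in control and 0.68, 1.17, 0.76 and 0.58 TPM in Glc. It rose to 103, 82.2, 102 and 85.6 TPM with ABA and stood at 50.4, 49.2, 44.4 and 40.0 TPM with ABA + Glc. As for LTI65, the ABA + Glc libraries did not overlap either those with ABA or those with Glc. Its log2 fold change with ABA was 6.36 ± 0.18 (SE, no test), a value that the added 0.5 TPM holds down because its control level was itself near 0.5.

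The ratio of the tandem copies therefore changed with ABA. LTI65 was 10.4 to 23.3 times LTI78 in control libraries and 8.34 to 14.9 times in Glc libraries, but 3.85 to 4.16 times in the 3 ABA libraries and 3.83 to 4.37 times in the 3 ABA + Glc libraries. The ratios with and without Glc overlapped, whereas those with and without ABA did not. Without ABA they divide by LTI78 levels of 0.35 to 1.17 TPM, near the floor, so their size is uncertain. The 2 transcripts share 11 stretches of 31 bases, 0.514% of those of LTI65 and 0.418% of those of LTI78. Replicate 3 of ABA had a ratio of 3.72 and that of ABA + Glc lay within the range of its group.

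KIN1 and KIN2 encode small hydrophilic proteins induced by cold and ABA. Their transcripts share 63 stretches of 31 bases, the default match length of kallisto, which is 7.89% of those of KIN1 and 8.75% of those of KIN2, so a part of the reads of each could be divided between them. KIN1 was at 0.84, 0.55, 0.82 and 0.62 TPM in control, at 0.94, 0.42, 0.57 and 0.45 TPM in Glc, at 34.1, 28.2, 28.3 and 27.7 TPM in ABA, and at 25.3, 21.8, 21.6 and 17.5 TPM in ABA + Glc. KIN2 was at 32.7, 24.3, 23.7 and 28.3 TPM in control and at 26.8, 23.5, 25.6 and 17.7 TPM in Glc. With ABA it reached 90.4, 76.6, 91.3 and 107 TPM, and with ABA + Glc 60.7, 52.2, 45.2 and 50.5 TPM. KIN2 thus had the highest control level of the 10 genes, whereas KIN1 was under 1 TPM in every library without ABA.

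KIN2 stood 28.8 to 45.7 times above KIN1 in control libraries and 28.5 to 55.8 times in Glc libraries. KIN1 was at 0.42 to 0.94 TPM in those libraries, so the size of these ratios is uncertain. In the 3 ABA libraries used the ratio was 2.65 to 3.84, with ABA replicate 3 within that range, and in the 3 ABA + Glc libraries used it was 2.40 to 2.89, with 2.096 in replicate 3. Here too the copy that was low without ABA had the larger fold: 42.4 for KIN1 and 3.35 for KIN2.

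COR413PM1 and COR413PM2 encode multispanning membrane proteins of the cold-regulated COR413 family placed in the plasma membrane. COR413PM1 was at 9.18, 5.15, 8.34 and 7.37 TPM in control, at 7.65, 6.31, 5.36 and 4.62 TPM in Glc, at 109, 117, 106 and 111 TPM in ABA, and at 50.7, 45.01, 32.2 and 44.7 TPM in ABA + Glc. COR413PM2 was at 10.7, 10.2, 12.2 and 10.4 TPM in control and 13.4, 12.2, 13.9 and 12.8 TPM in ABA, and at 8.43 to 11.2 TPM with Glc and 9.80 to 11.7 TPM with ABA + Glc. The transcripts share no stretch of 31 bases. COR413PM1 was below COR413PM2 in every control and Glc library, at 0.501 to 0.907 of its level, and above it in every ABA library, at 8.12 to 9.62 times its level in the 3 used and 7.60 times in replicate 3. With ABA + Glc the ratio was 3.81 to 5.18, between the others, and it was 3.11 in replicate 3, which was left out.

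**Figure D2:**
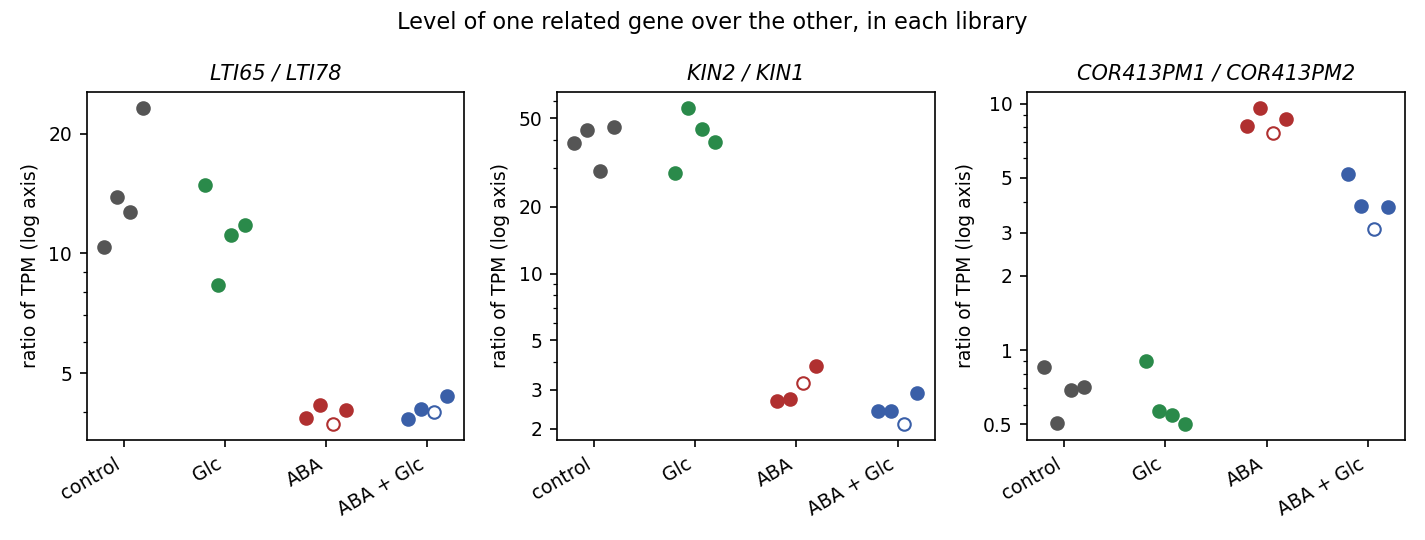
Ratio of the TPM of one related gene to the other in each library, on log axes, for LTI65 over LTI78, KIN2 over KIN1 and COR413PM1 over COR413PM2; filled points are the 14 libraries used and open points replicate 3 of ABA and ABA + Glc. Points with and without ABA are apart in all 3 panels, and in the third panel ABA + Glc (3.81 to 5.18) lies below ABA (8.12 to 9.62).

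TSPO, a membrane protein of the tryptophan-rich sensory protein family that binds porphyrins and is induced by ABA in vegetative tissue, had the highest level of the 10 genes under ABA. It was at 16.01, 13.6, 19.1 and 18.5 TPM in control and at 26.8, 25.4, 18.4 and 14.7 TPM in Glc. It reached 473, 457, 421 and 462 TPM in ABA and 209, 215, 187 and 212 TPM in ABA + Glc. Libraries with ABA lay far above those without it, and the ABA + Glc libraries formed a narrow band far below those with ABA.

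RD26, a NAC transcription factor of the drought and ABA response, was low. It was at 4.42, 3.72, 2.97 and 4.31 TPM in control, at 3.98, 3.66, 2.08 and 2.19 TPM in Glc, at 7.59, 9.23, 8.15 and 9.21 TPM in ABA, and at 4.51, 3.53, 5.46 and 4.58 TPM in ABA + Glc. Its ABA libraries stood above the other 3 groups, and its ABA + Glc libraries overlapped those of control and of Glc.

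RD22 and RD20 were low in these seeds. RD22, which encodes a BURP-domain protein, was at 0.57 to 1.73 TPM in control, 1.22 to 1.93 TPM in Glc, 0.89 to 1.46 TPM in ABA and 0.97 to 1.31 TPM in ABA + Glc, with every pair of treatments overlapping except Glc and the ABA libraries used. RD20, a caleosin that binds calcium and acts on lipid droplets as a peroxygenase, was at 0.16 to 0.49 TPM in control and 0.15 to 0.31 TPM in Glc, and at 0.00 to 0.24 TPM in the 8 libraries with ABA, where it was listed at 0 in ABA replicate 4 and ABA + Glc replicates 1 and 4. It was under the minimum for testing, over 0.5 TPM in at least 50% of libraries, in all 16 libraries.

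**Figure D3:**
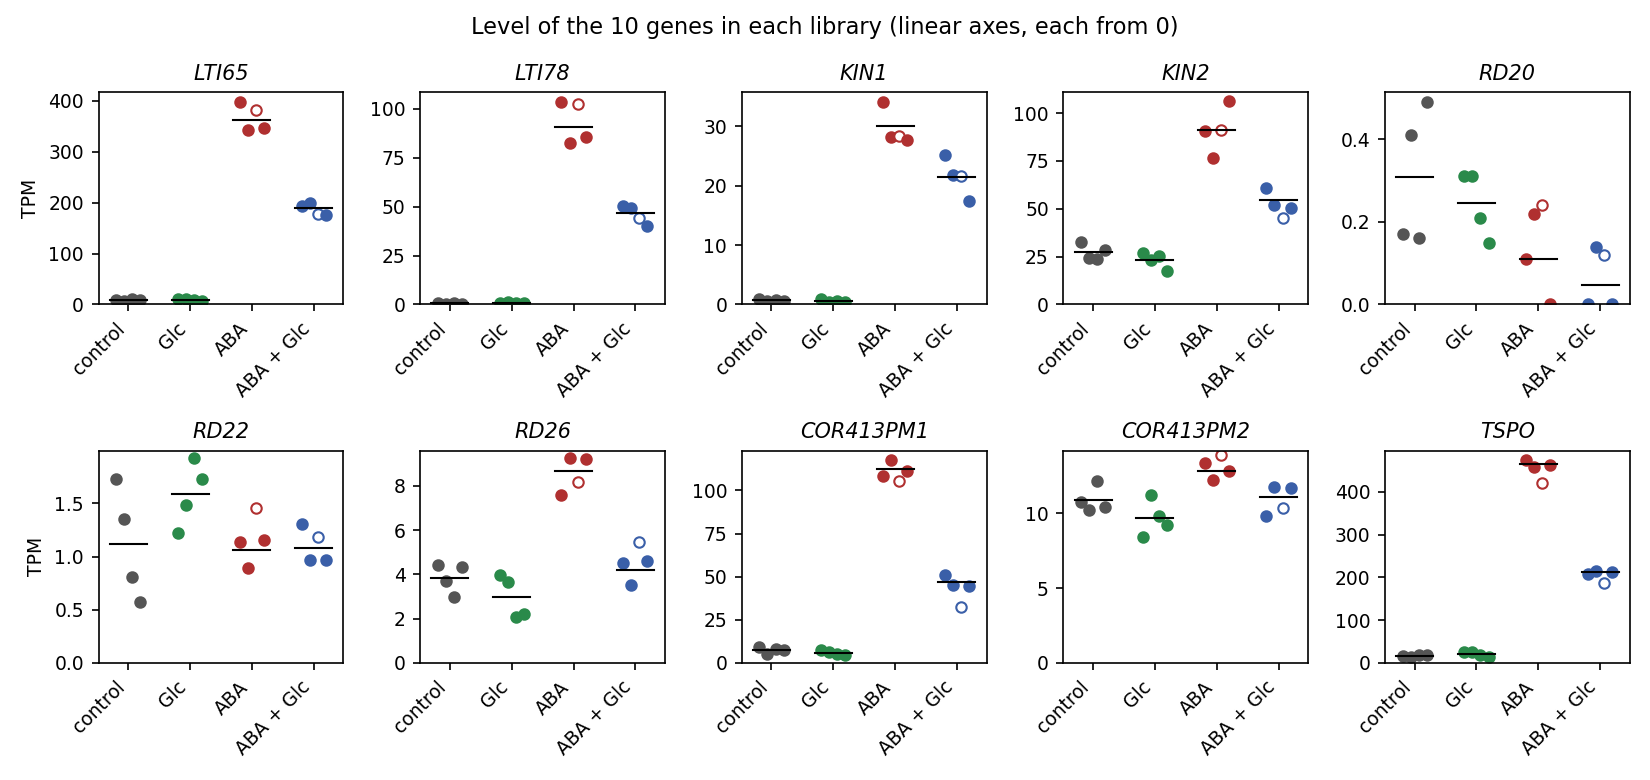
TPM of each of the 10 genes in each library on linear axes that start at 0; filled points are the 14 libraries used, open points are replicate 3 of ABA and of ABA + Glc, and bars are the means of the filled points. In LTI65, LTI78, KIN1, KIN2, COR413PM1 and TSPO the libraries with ABA lie above all others and those with ABA + Glc below those with ABA, while RD20 stays at 0.49 TPM or less.

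The order of the levels changed with the treatment. In control the means were 27.2 ± 4.2 TPM for KIN2 (SD, n = 4), 16.8 ± 2.5 for TSPO, 10.9 ± 0.87 for COR413PM2, 8.46 ± 1.67 for LTI65, 7.51 ± 1.74 for COR413PM1 and 3.86 ± 0.67 for RD26, and the next 4 were at 1.12 TPM or less. LTI65 and COR413PM1 were neighbours whose libraries overlapped, and so were RD22, KIN1 and LTI78. In ABA the order was TSPO at 464 ± 8.5 TPM (SD, n = 3), LTI65 at 362 ± 31, COR413PM1 at 112 ± 4.6, KIN2 at 91.2 ± 15, LTI78 at 90.4 ± 11, KIN1 at 30.0 ± 3.5, COR413PM2 at 12.8 ± 0.58 and RD26 at 8.68 ± 0.94. KIN2 and LTI78 did not differ beyond their spread there, while in control they had been at the top and near the bottom of the list.

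Glc without ABA moved none of the genes past the test. The question was whether the sugar alone changes these transcripts in *sweet1* seeds, and in this contrast 0 of the 9 genes tested rose and 0 fell, with 0 at an unadjusted p under 0.05 as well. Passing took an adjusted p (Benjamini-Hochberg, over all 17498 genes) under 0.05 together with a change of at least 1.22-fold, which 1.14% of genes reached upward and 2.95% downward. This contrast shares the control libraries with the one that chose the genes. The log2 fold changes were 0.42 for RD22 (95% interval -0.02 to 0.86), 0.31 for TSPO (-0.01 to 0.62), 0.22 for LTI78 (-0.13 to 0.57) and 0.06 for LTI65 (-0.21 to 0.33) on the one side. On the other they were -0.16 for KIN1 (-0.48 to 0.17), -0.17 for COR413PM2 (-0.36 to 0.02), -0.22 for KIN2 (-0.50 to 0.06), -0.30 for COR413PM1 (-0.62 to 0.02) and -0.36 for RD26 (-0.73 to 0.02). Each of the 9 intervals holds a change of 1.22-fold in one direction. Without Glc replicate 4, TSPO passed upward (0.47, limma adjusted p = 0.0323), and without control replicate 2, COR413PM1 passed downward (-0.46, limma adjusted p = 0.0476).

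ABA raised 6 genes when Glc was present in both groups. This contrast, ABA + Glc against Glc, compares no library of the contrast that chose the genes. Its estimate of the spread was shared by all 4 treatments, control and ABA included. The genes were chosen with earlier results of these data known, so the count is no independent check. LTI78, LTI65, KIN1, TSPO, COR413PM1 and KIN2 rose, 6 of the 9 tested, where 5.43% of all genes tested rose and 6.01% fell. Each was higher in every ABA + Glc library than in any Glc library. The share of all genes separated in this way was not counted, so nothing further is read from it. The log2 fold change was 5.19 ± 0.18 for LTI78 (SE, limma adjusted p = 3.28e-11), 4.36 ± 0.14 for LTI65 (adjusted p = 2.53e-11) and 4.34 ± 0.16 for KIN1 (adjusted p = 4.69e-11). It was 3.32 ± 0.16 for TSPO (limma adjusted p = 4.13e-10), 2.89 ± 0.16 for COR413PM1 (adjusted p = 2.92e-09) and 1.22 ± 0.14 for KIN2 (adjusted p = 1.30e-05). LTI78 and KIN1 were tested not through their high groups alone, since 6 of the 8 control and Glc libraries also held over 0.5 TPM of each.

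RD26, COR413PM2 and RD22 did not pass in that contrast, with log2 fold changes of 0.47 ± 0.19 (SE, limma adjusted p = 0.111), 0.19 ± 0.10 (adjusted p = 0.207) and -0.40 ± 0.22 (adjusted p = 0.274). RD26 passed where ABA + Glc replicate 3 was added (0.56, limma adjusted p = 0.0470), over all 16 libraries (0.56, adjusted p = 0.0377) and without Glc replicate 1 (0.61, adjusted p = 0.0391).

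Adding Glc to ABA lowered 6 genes, of which RD26 alone then overlapped the Glc libraries. Whether Glc changes what ABA does in seeds labelled *sweet1* is the question of this contrast, ABA + Glc against ABA, which shares the ABA libraries with the one that chose the genes. COR413PM1, TSPO, RD26, LTI78, LTI65 and KIN2 fell, 6 of the 9 tested, where 1.91% of all genes tested fell and 0.732% rose. In each the ABA + Glc libraries lay below every ABA library, and here too the share of all genes so separated was not counted. The log2 fold change was -1.26 ± 0.17 for COR413PM1 (SE, limma adjusted p = 0.000737), -1.13 ± 0.17 for TSPO (adjusted p = 0.00155) and -0.93 ± 0.15 for LTI65 (adjusted p = 0.00244). It was -0.97 ± 0.20 for RD26 (limma adjusted p = 0.0150), -0.95 ± 0.19 for LTI78 (adjusted p = 0.0107) and -0.73 ± 0.15 for KIN2 (adjusted p = 0.0140).

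KIN1 had a log2 fold change of -0.48 ± 0.18 there (SE, limma adjusted p = 0.184), COR413PM2 of -0.20 ± 0.10 (adjusted p = 0.362) and RD22 of 0.02 ± 0.24 (adjusted p = 0.989), and they did not pass. Whether KIN1 differs from KIN2 in this was not tested, and their 95% intervals, -0.85 to -0.11 and -1.05 to -0.41, overlap. For KIN2, LTI78 and RD26 the size of the fall stayed close to these values with 1 library left out (-0.85 to -0.61, -1.02 to -0.85 and -1.05 to -0.86), but some of those fits missed the threshold. KIN2 did not pass without ABA replicate 1 or 4 or ABA + Glc replicate 2 or 4 (limma adjusted p = 0.0506, 0.0696, 0.0548 and 0.0600). LTI78 did not pass without ABA replicate 1 or ABA + Glc replicate 4 (limma adjusted p = 0.0622 and 0.0572), nor RD26 without ABA replicate 2 or 4 or ABA + Glc replicate 2 (adjusted p = 0.0605, 0.0598 and 0.0725). The falls of COR413PM1, TSPO and LTI65 passed without any 1 library.

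**Figure D4:**
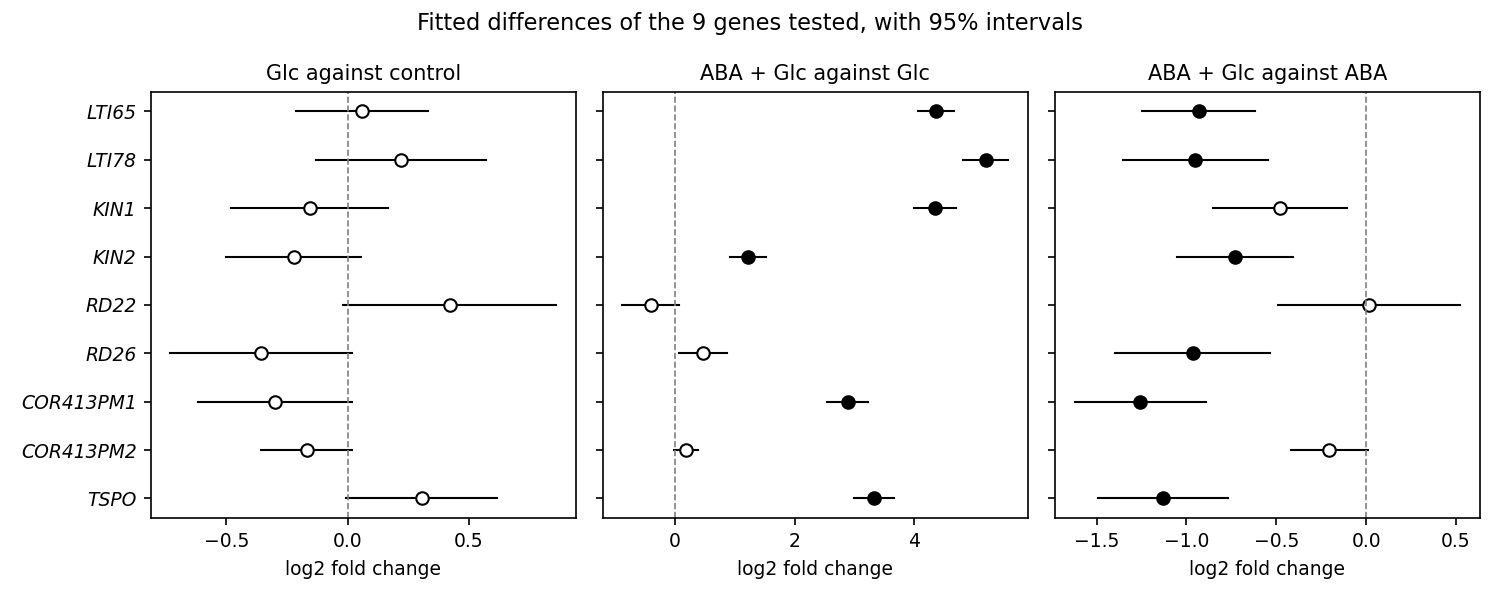
Log2 fold changes (points) with 95% intervals (lines) of the 9 genes tested, in 3 contrasts with their own horizontal scales; filled points passed the test. No point is filled for Glc against control, 6 are filled to the right for ABA + Glc against Glc, and 6 to the left for ABA + Glc against ABA.

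In mean TPM, the 7 genes raised by ABA kept 41.6% to 71.7% of their ABA level when Glc was added, with 41.6% for COR413PM1, 45.6% for TSPO, 48.5% for RD26, 51.5% for LTI78, 52.3% for LTI65, 59.7% for KIN2 and 71.7% for KIN1. Their median was 51.5%. Over the 503 genes at least 2-fold higher under ABA with no overlap, the median was 72.1% and the quartiles were 62.1% and 81.3%, a set that contains these 7. A gene whose whole ABA rise is lost still keeps its control level, and that share is larger the smaller its fold. The levels kept by the 7 genes therefore do not rank the loss of the rise. The rise of the mean from Glc to ABA + Glc, in percent of that from control to ABA, was lowest for RD26, at 25.49%. It was 38.91% for COR413PM1, 42.57% for TSPO, 48.66% for KIN2, 50.93% for LTI78, 51.04% for LTI65 and 71.36% for KIN1. The 2 medians were not matched for fold, so no difference in response to Glc is read from them. As a description with no test, the log2 difference between the ABA effect with Glc and that without was -1.44 ± 0.22 for TSPO (SE), -1.17 ± 0.25 for LTI78, -0.99 ± 0.20 for LTI65, -0.96 ± 0.23 for COR413PM1, -0.61 ± 0.27 for RD26 and -0.51 ± 0.20 for KIN2. It was -0.32 ± 0.23 for KIN1, -0.40 ± 0.32 for RD22 and -0.04 ± 0.13 for COR413PM2.

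Relatives of the 10 genes did not all follow them. Of 17 paralogs, 8 were expressed highly enough to be tested. Against Glc, ABA + Glc raised 3 of them and lowered 1: AT3G02480, a LEA family protein related to KIN1 (2.30 ± 0.08 SE, limma adjusted p = 3.67e-11), the seed caleosins PXG2 (1.89 ± 0.16, adjusted p = 4.32e-07) and PXG1 (1.62 ± 0.17, adjusted p = 5.07e-06), and, downward, the BURP-domain gene PGL3 (-0.48 ± 0.07, adjusted p = 0.000176). While RD20 was near 0, PXG2 stood at 3.36 ± 0.98 TPM in control (SD, n = 4) and 22.5 ± 0.81 TPM in ABA (n = 3). AT3G02480 was at 336 ± 21 TPM in control (SD, n = 4), 3024 ± 323 TPM in ABA (n = 3) and 2019 ± 75 TPM in ABA + Glc (n = 3), far above KIN1 and KIN2, and was the 1 paralog lowered by ABA + Glc against ABA (-0.58 ± 0.09 SE, limma adjusted p = 0.00204) and the 1 raised by Glc against control (0.29 ± 0.08, adjusted p = 0.0324). The list's median log2 fold change was 0.12, 0.09 and -0.10 in the Glc, ABA + Glc against Glc, and ABA + Glc against ABA contrasts, where that of all genes was 0.00 in each. This list and those below were chosen with earlier results of these data known. Over all genes tested, 5.43% rose and 6.01% fell with ABA + Glc against Glc. With ABA + Glc against ABA 0.732% rose and 1.91% fell, and with Glc against control 1.14% rose and 2.95% fell. The counts of the lists were not tested against these shares.

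Of 9 bZIP factors that bind ABREs, 8 were tested and 5 rose with ABA + Glc against Glc, namely ABI5 (1.38 ± 0.08 SE, limma adjusted p = 5.34e-09), GBF3 (1.37 ± 0.08, adjusted p = 7.29e-09), EEL (0.92 ± 0.11, adjusted p = 1.50e-05), ABF4 (0.63 ± 0.09, adjusted p = 6.89e-05) and ABF3 (0.47 ± 0.11, adjusted p = 0.00996). With ABA + Glc against ABA, 3 fell: GBF3 (-0.52 ± 0.09 SE, limma adjusted p = 0.00399), ABF4 (-0.50 ± 0.09, adjusted p = 0.00701) and ABI5 (-0.47 ± 0.09, adjusted p = 0.00688). None passed with Glc alone, and the medians of the list were 0.05, 0.55 and -0.15 in the 3 contrasts. ABI5, the bZIP factor through which ABA holds back germination, was at 33.8 to 43.8 TPM in control and 156 to 172 TPM in the 4 ABA libraries. In the 4 ABA + Glc libraries it was at 112 to 154 TPM, with the highest in replicate 3, which was left out.

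Of 17 genes for DRE-binding factors and cold regulators, 12 were tested. The main cold activators were low: CBF1 and CBF3 were at 0.58 TPM or less in every library, and COR15A, their classic target, at 1.04 TPM or less. Other genes of cold and drought responses were not low, with COR47 at 59.3 to 100 TPM and the DRE-binding factor DREB2A at 89.6 to 190 TPM. CBF2 was at 1.68 to 5.46 TPM and was the 1 gene of the list that fell with Glc (-0.69 ± 0.19 SE, limma adjusted p = 0.0391). With ABA + Glc against Glc, DREB2B (0.93 ± 0.16 SE, limma adjusted p = 0.000555), RAP2.1 (0.66 ± 0.11, adjusted p = 0.000557), DREB2A (0.48 ± 0.11, adjusted p = 0.00554) and ICE1 (0.38 ± 0.04, adjusted p = 3.45e-06) rose and the zinc finger repressor ZAT10 fell (-0.56 ± 0.14, adjusted p = 0.00932). None of the 12 passed with ABA + Glc against ABA, where the list median was -0.13, after -0.12 for Glc and 0.06 for ABA + Glc against Glc. In the ABA + Glc against ABA contrast, ABI4 (0.28 ± 0.05 SE, limma adjusted p = 0.00766) and ICE1 (-0.18 ± 0.04, adjusted p = 0.026) missed the minimum fold alone.

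Of 9 MYC, MYB and NAC factors with their partners, 6 were tested. MYC2 and MYB2, for which RD22 is the known target, were listed at 0 in every library. Whether these transcripts were absent or not counted cannot be told from the values. NAC032 (1.57 ± 0.12 SE, limma adjusted p = 9.01e-08), ATAF1 (0.67 ± 0.06, adjusted p = 7.39e-07), NAC102 (0.44 ± 0.10, adjusted p = 0.00453) and ZFHD1 (0.37 ± 0.06, adjusted p = 0.000294) rose with ABA + Glc against Glc. NAC032 (-0.65 ± 0.13 SE, limma adjusted p = 0.00870) and ATAF1 (-0.40 ± 0.06, adjusted p = 0.00279), both NAC factors like RD26, fell with ABA + Glc against ABA, and NAC102 fell with Glc against control (-0.54 ± 0.09, adjusted p = 0.00217). The list medians were -0.19, 0.41 and -0.39.

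Among 22 further genes of cold, drought and ABA responses, 18 were tested, and 7 rose and 2 fell with ABA + Glc against Glc. The dehydrins LTI30 (2.07 ± 0.25 SE, limma adjusted p = 2.11e-05) and RAB18 (1.79 ± 0.23, adjusted p = 4.81e-05) rose most, followed by ERD7 (0.78 ± 0.07, adjusted p = 7.25e-07). The 2 that fell were the cysteine proteases RD21A (-0.50 ± 0.09 SE, limma adjusted p = 0.00143) and RD19A (-0.35 ± 0.05, adjusted p = 8.20e-05), which carry RD names but went the other way. With ABA + Glc against ABA, 4 fell: RAB18 (-1.04 ± 0.25 SE, limma adjusted p = 0.0317), the dehydrin ERD14 (-0.59 ± 0.06, adjusted p = 7.68e-05), COR28 (-0.41 ± 0.10, adjusted p = 0.0407) and ERD7 (-0.32 ± 0.08, adjusted p = 0.0264). None passed with Glc alone, and the medians were 0.02, 0.11 and -0.13.

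Of the 5 embryo storage markers, 3 rose with ABA + Glc against Glc: the oleosins OLEO2 (3.48 ± 0.17 SE, limma adjusted p = 7.50e-10) and OLEO1 (2.99 ± 0.19, adjusted p = 1.20e-08) and the cruciferin CRA1 (2.43 ± 0.13, adjusted p = 1.93e-09). None of the 5 passed with ABA + Glc against ABA, where 6 of the 9 stress genes tested did. The log2 fold changes there were negative for CRA1 (-0.35 ± 0.14 SE), OLEO2 (-0.34 ± 0.19) and OLEO1 (-0.29 ± 0.20). They were positive for CRU3 (0.22 ± 0.23 SE) and SESA3 (0.57 ± 0.35). With Glc alone 3 rose, CRU3 (0.78 ± 0.20 SE, limma adjusted p = 0.0280), OLEO2 (0.65 ± 0.16, adjusted p = 0.0233) and CRA1 (0.62 ± 0.12, adjusted p = 0.00619). The difference between the lists was not tested.

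Over the 14 libraries, levels of LTI65, LTI78, KIN1, KIN2, COR413PM1 and TSPO went together, with Pearson correlations of log2(TPM + 0.5) of 0.944 to 0.998 in the 15 pairs. The 14 points share the treatments and fall into groups with and without ABA. The gene outside the group most like LTI65 (0.999) and LTI78 (0.998) was AT4G36600, which the files do not name and RefSeq annotates as a late embryogenesis abundant (LEA) protein, at 7.14 TPM in control, 7.33 in Glc, 200 in ABA and 117 in ABA + Glc on average. It was NADP-ME1, an NADP-malic enzyme, for KIN1 (0.996), AT5G07330 for TSPO (0.998), GPX6, a glutathione peroxidase, for COR413PM1 (0.993), and AT5G59960 for KIN2 (0.982). Many genes were this alike: 300 to 387 genes outside the group correlated over 0.95 with each of LTI65, LTI78, KIN1, COR413PM1 and TSPO, and 125 with KIN2. For RD26, COR413PM2 and RD22 the nearest genes were PFP-BETA2 (0.933), AT3G50210 (0.926) and CPN60A2 (0.796), and none passed 0.95.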

How the data were processed

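RNA sequencing values came from 16 libraries of whole germinating *sweet1* seeds, grouped by the treatment and replicate number of the labels. The submitters' processing notes name Trimmomatic 0.38, kallisto 0.44.0 (run on primary transcripts, per the methods) and sleuth. The values the authors deposited are headed TPM but are treated as a score, since library sums differ and no source used here says how they were rescaled. The labels and methods name different sequencers. No read counts were used, so the depth and counting error are unknown. Genes over 0.5 TPM in at least 50% of 14 libraries were tested with limma 3.58.1 (R 4.3.3), with a trend, on log2(TPM + 0.5), with all 4 treatments in 1 model and Benjamini-Hochberg adjustment; fold changes on this scale understate those of low genes. A change of 0.2 on the natural log scale (1.22-fold), the study's minimum, was required. No pairing by replicate number was seen in the values, and none was used in the main fit. The script was tested on simulated data. Motifs and sequences were read with pysam 0.24.0 from TAIR10.1, and 31-base stretches from the first listed transcripts there. The 10 genes and all lists were chosen with earlier results of these data known. Named from a list were up to 3 passed genes per contrast with the largest change and any gene accounting for a count of 5 or fewer. Alternatives were all 16 libraries, each of the 2 left-out libraries added, leaving out each of 14 libraries, a replicate block, other pseudocounts and filters, equal library sums, no trend, and fits on the 2 groups of a contrast.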

Additional observations from a re-analysis of the deposited data

Results flagged for a closer look

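KIN1 stood apart in ABA replicate 1, at 34.1 TPM against 27.7 to 28.3 TPM in the other 3 ABA libraries. The gap was 0.907 of the range of that group. It was the 1 group marked among 40 checked (10 genes in 4 treatments of 4 libraries), where chance marks about 1 in 20.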

How the results depend on the processing

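Over 91 values of the 4 main counts under the alternatives, 87 stayed within 1.5 times. A filter of over 10 TPM left fewer of the 10 genes to test and gave 3 raised with ABA + Glc against Glc and 3 lowered with ABA + Glc against ABA, in place of 6 and 6. Leaving out 1 library at a time gave 0 to 1 called for Glc against control, 6 to 7 for ABA + Glc against Glc and 4 to 6 for ABA + Glc against ABA. With a replicate block the counts stayed at 0, 6 and 6. Same-numbered libraries deviated from their group means with correlations of -0.0646 to 0.123, and other-numbered libraries with -0.149 to 0.106. No pairing by number was seen, though this cannot show whether same-numbered samples were handled together. Over all 16 libraries the counts were 0, 7 and 6. Values near 0 changed sign: LTI65 with Glc against control ranged from -0.0688 to 0.168 with 1 library left out, and RD22 with ABA + Glc against ABA was -0.0437 over all 16 libraries, -0.0668 with ABA replicate 3 added, and -0.0842 to 0.0659 with 1 library left out. With 0.1 TPM added in place of 0.5, LTI78 no longer passed with ABA + Glc against ABA (-0.96, limma adjusted p = 0.0696), and its log2 fold change with ABA alone was 7.04, or 5.82 with 1 TPM added. Without any filter, RD20 was tested and did not pass in the 3 contrasts (limma adjusted p = 0.799, 0.110 and 0.805). Unknown depth limits what can be said of genes under 1 TPM.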
